A study of Mus musculus with 24 samples.

Results

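The 7 aquaporins Aqp1, Aqp2, Aqp3, Aqp4, Aqp6, Aqp7 and Aqp11 and the vasopressin V2 receptor Avpr2 were followed in whole-kidney RNA from adult mice that had lost the peroxisomal import receptor Pex5 in the renal tubule. These 8 genes were taken by name from the 55335 genes counted in each kidney, because they carry or control water transport along the nephron. Earlier results of these data were known when they were chosen. RNA came from 24 kidneys in 4 groups of 6, which are called Ctrlm, cKOm, Ctrlf and cKOf here, with m for males and f for females. cKO mice carried Pex5lox/lox together with Pax8-rtTA and LC1. Ctrl mice were Pex5lox/lox littermates without the transgenes that excise the gene. Both received DOX (doxycycline) at 8 weeks of age over 2 weeks, followed by 4 weeks without it. All mice were bred on the C57BL/6J background. The collection time is given as ZT9 in one of the labels and as ZT3 in another, so it is not settled here.

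The model sets limits to what these kidneys can show. Pax8-rtTA restricts Cre to tubule and collecting duct cells, whereas the RNA came from all cells of the kidney. Controls lacked the transgenes but received the same drug. Pex5, counted over its deleted and its intact exons alike, had a level of 54.3 ± 4.63 CPM (reads of a gene relative to the library size, scaled by the TMM method) in Ctrlm and 43.7 ± 1.94 CPM in cKOm mice (mean ± SD, n = 6). It was 50.3 ± 6.97 CPM in Ctrlf and 43.6 ± 3.55 CPM in cKOf mice. Pex5 changed by -0.31 on the log2 scale in males (edgeR adjusted p = 0.0219, and -0.26 with an adjusted p of 0.382 without the 5 kidneys described in the next paragraph) and had -0.21 in females, where it did not pass the threshold (edgeR adjusted p = 0.177).

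Depth on genes ran from 19376152 to 28470831 reads with 21592602 in the median kidney. Every one of the 11 proximal tubule, 7 S3 segment, 7 principal cell and 8 intercalated cell markers was detected in all 24 kidneys. Transcripts of hepatocytes stood apart. The summed level of 10 hepatocyte markers was above 400 CPM in 4 of 6 Ctrlm kidneys and in 1 cKOm kidney (417 to 912 CPM) and was at most 117.3 CPM in the other 19, although 7 of the 10 markers were above 0 in every kidney. Calls in males that were lost without these 5 kidneys are named where they are given. In addition, 1 Ctrlf kidney had 544 CPM of 5 skeletal muscle markers and another 233 CPM of 7 adipocyte markers, with no more than 118 and 73.5 CPM in any group other than Ctrlf.

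Aquaporins are membrane channels that let water, and in some members glycerol, cross the plasma membrane along an osmotic gradient. Aqp1 lines the apical and basolateral membranes of the proximal tubule and thin descending limb, where most filtered water is recovered. Aqp7 sits in the apical membrane of the last, straight portion of the proximal tubule (S3) and carries glycerol as well as water, and Aqp11 lies in the endoplasmic reticulum of proximal tubule cells. In the collecting duct, vasopressin binds AVPR2 on principal cells, cAMP rises, and vesicles with AQP2 are inserted in the apical membrane. Water then leaves the cell through AQP3 and AQP4 in the basolateral membrane. In the mouse Aqp4 is also found in the S3 segment. Aqp6 is an intracellular channel of acid-secreting intercalated cells.

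Positions are on GRCm38. Aqp1 is at chr6:55336432-55348555 on the plus strand. Aqp2 (chr15:99579055-99584547) and Aqp6 (chr15:99601400-99605477) are close neighbours on the plus strand of chromosome 15. Aqp7 (chr4:41033074-41048139) and Aqp3 (chr4:41092722-41098183) are likewise close to each other, on the minus strand of chromosome 4. Aqp11 is at chr7:97724006-97738289 on the minus strand. Avpr2 is at chrX:73892102-73895502 on the plus strand. Avpr2 overlaps L1cam and Arhgap4 on the opposite strand. The libraries kept the strand, but whether the counting used it is not given in the sources used here, so the counts of Avpr2 may hold reads from these partners.

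The promoters of 3 members are shown, those of Aqp1, which was lower in cKOm mice, of Aqp6, which was lower in cKOf mice, and of Aqp2, the target of vasopressin. Each run is the 250 bases before the start site in RefSeq (GRCm38.p6, plus strand, 5′ to 3′). They span chr6:55336049-55336298 for Aqp1, chr15:99600950-99601199 for Aqp6 and chr15:99578806-99579055 for Aqp2. Capitals mark matches to the motifs listed after them.
Aqp1: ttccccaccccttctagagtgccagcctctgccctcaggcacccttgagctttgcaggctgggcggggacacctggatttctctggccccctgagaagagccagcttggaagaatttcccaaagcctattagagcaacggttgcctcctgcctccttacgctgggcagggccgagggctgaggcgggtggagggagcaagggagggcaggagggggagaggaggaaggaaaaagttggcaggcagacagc
Aqp6: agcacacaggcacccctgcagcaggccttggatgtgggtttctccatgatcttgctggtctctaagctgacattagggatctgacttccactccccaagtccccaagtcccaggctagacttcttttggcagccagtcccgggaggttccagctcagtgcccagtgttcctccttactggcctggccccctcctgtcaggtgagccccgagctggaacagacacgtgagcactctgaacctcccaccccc
Aqp2: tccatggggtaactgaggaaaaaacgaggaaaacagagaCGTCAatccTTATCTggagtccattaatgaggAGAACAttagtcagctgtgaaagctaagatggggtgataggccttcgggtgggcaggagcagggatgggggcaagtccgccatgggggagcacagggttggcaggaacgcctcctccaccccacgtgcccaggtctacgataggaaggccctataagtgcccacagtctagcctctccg

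Short motifs (6), written with their letters, were searched on both strands of windows that ran from 250 bases before to 50 bases after a start site. The cAMP response element TGACGTCA was found in 1.79% of 32851 such windows of the genome, and its core TGACG, which is part of it, in 20.8%. The share was 13.6% for the TATA box TATAAA, 11.2% for the GATA site AGATAA, 16.3% for the nuclear receptor core AGGTCA and 19% for the steroid receptor core AGAACA. Aqp2 had the core TGACG at -211, the GATA site at -202 and the steroid receptor core at -179, counted from the start site, with the first 2 of them on the minus strand. The windows of Aqp1 and Aqp6 held none of these letters. Among the other members with a window, Aqp3 had a TATA box at -29, and Avpr2 had TATAAA on the minus strand at -45 with the steroid receptor core at -59 and -50, of which the last shares a base with the TATA box. Aqp11 had the nuclear receptor core at -230. The pair of windows of Aqp7 held this core at -49, the GATA site at -132 and the steroid receptor core at 2 in one, and the nuclear receptor core at -223 and -101 and the steroid receptor core at -173 in the other. These windows overlap, so the matches at -49 and 2 of the first are the same bases as those at -223 and -173 of the second. A match describes the sequence and is not a binding site.

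**Figure D1:**
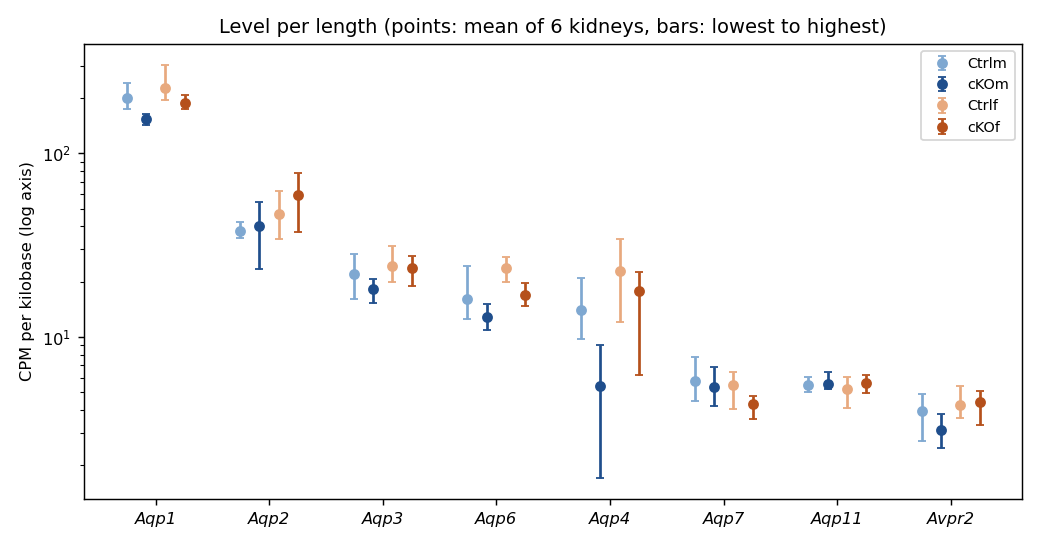
Level of the 8 genes as CPM per kilobase of exon on a log axis, as the mean of 6 kidneys per group (points) with the lowest and highest kidney (bars). Aqp1 stands above all others in every group, Aqp2 follows, and Aqp4 drops from 14 CPM per kilobase in Ctrlm to 5.43 CPM per kilobase in cKOm mice.

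Levels of different genes were compared as CPM per kilobase of exon. Aqp1 was the most abundant of the 8 in every group, with 199 ± 23.8 CPM per kilobase in Ctrlm and 228 ± 40.2 CPM per kilobase in Ctrlf mice (mean ± SD, n = 6). Aqp2 was next, with 38 ± 3.05 and 46.6 ± 9.91 CPM per kilobase, and its kidneys overlapped neither those of Aqp1 nor those of Aqp3 in any group. Aqp3, Aqp6 and Aqp4 followed in both control groups, at 22.1, 16.1 and 14 CPM per kilobase in Ctrlm and at 24.4, 23.7 and 22.8 CPM per kilobase in Ctrlf mice, and neighbours in this order overlapped. Aqp7 and Aqp11 lay well below them, at 5.79 and 5.48 CPM per kilobase in Ctrlm mice, and overlapped each other. Avpr2 was the lowest in Ctrlm mice at 3.93 ± 0.731 CPM per kilobase.

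The order changed at its lower end in cKO mice. In cKOm mice Aqp4 fell back among Aqp11 and Aqp7, at 5.43 ± 3.27 CPM per kilobase, and no longer overlapped Aqp6 at 12.8 ± 1.47 CPM per kilobase. In cKOf mice Aqp4, at 17.8 ± 6.06 CPM per kilobase, remained beside Aqp6 at 17 ± 2.11 CPM per kilobase, and Aqp7 was the lowest of the 8 with 4.31 ± 0.491 CPM per kilobase, although its kidneys overlapped those of Avpr2.

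The first question was which of these transcripts differed between cKO and Ctrl mice of the same sex. In males, Aqp1 and Aqp4 were lower in cKOm mice, which makes 2 of 8 members called where 9.05% of 16092 tested genes were called. In females, Aqp6 alone was lower in cKOf mice, 1 of 8 members where 0.851% of the tested genes were called. No member was higher in cKO mice of either sex past the threshold, which was an edgeR adjusted p of 0.05 over the tests of both sexes. The median log2 fold change over the 8 members was -0.30 in males and -0.16 in females, beside 0.01 and 0.00 over all tested genes. At an unadjusted p under 0.05 there were 5 of 8 members in males and 3 in females, where 25.1% and 6.73% of all tested genes were under it.

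**Figure D2:**
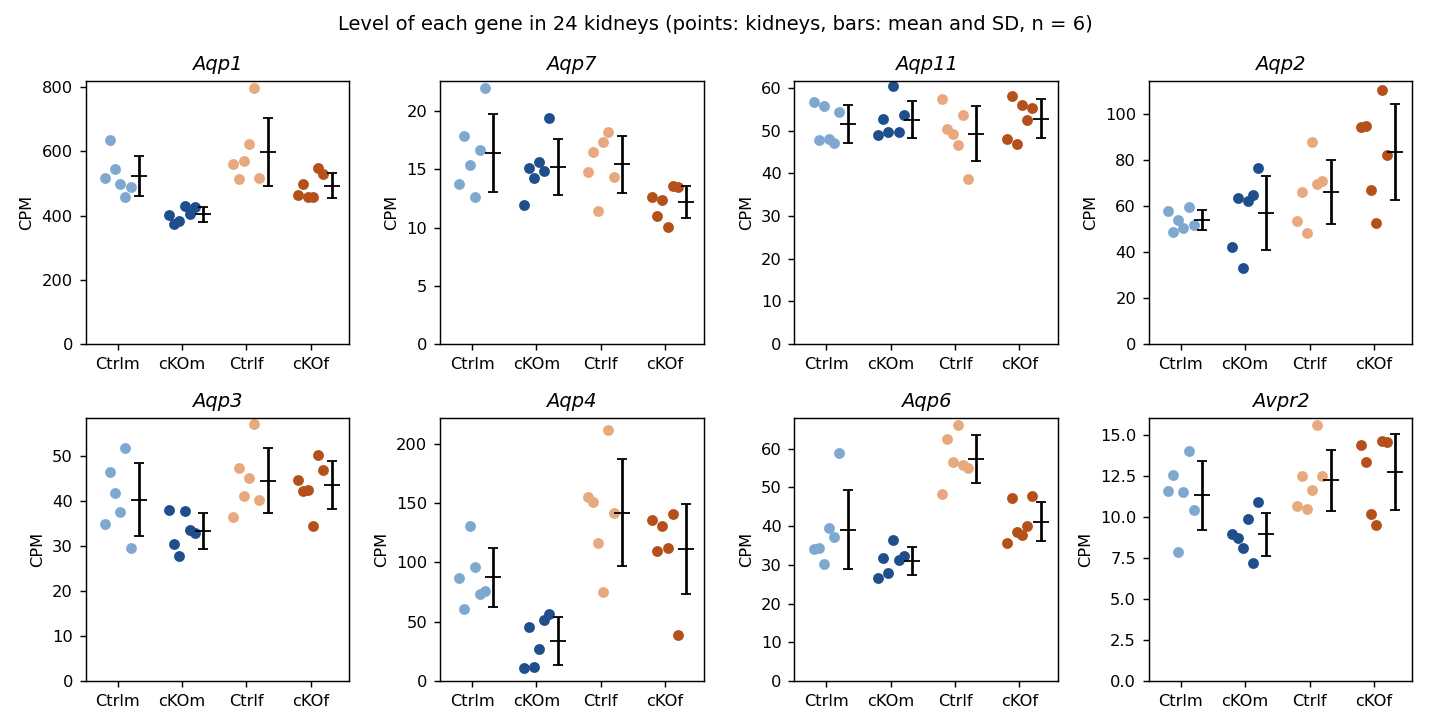
CPM of each gene in each of the 24 kidneys (points, 6 per group) with the mean and SD (bars), on axes that start at 0. The cKOm kidneys lie below all Ctrlm kidneys for Aqp1 (374 to 429 CPM against 457 to 636 CPM) and Aqp4 (10.6 to 56.7 CPM against 60.7 to 131 CPM), and the cKOf kidneys lie below all Ctrlf kidneys for Aqp6 (35.6 to 47.8 CPM against 48.2 to 66 CPM).

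Of the proximal tubule members, Aqp1 changed most clearly. Its level in Ctrlm mice ran from 457 CPM over a median of 507 CPM to 636 CPM. In cKOm mice it ran from 374 CPM over a median of 404 CPM to 429 CPM. All 6 cKOm kidneys were below all 6 Ctrlm kidneys (difference of means -120.1 CPM, exact permutation test on both sides, p = 0.00216, which is the lowest value 6 kidneys against 6 can give). Groups without overlap were seen for 7.38% of the tested genes in males. On the log2 scale the change was -0.38 with a standard error of 0.09 (edgeR adjusted p = 0.0146), so that the level fell by 22.9%.

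The call on Aqp1 in males depended on the kidneys with hepatocyte transcripts. It became -0.30 with the hepatocyte markers as a covariate (edgeR adjusted p = 0.207). Without the 5 kidneys, which leaves 2 Ctrlm and 5 cKOm kidneys, it was -0.28 (edgeR adjusted p = 0.375). Those 2 Ctrlm kidneys had 457 and 489 CPM, still above each cKOm kidney, and the 4 others had 497 to 636 CPM.

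In females the Aqp1 transcript was measured at 516, 566 and 798 CPM in the lowest, median and highest Ctrlf kidney, and at 458, 481 and 548 CPM in cKOf mice. The groups overlapped, with 4 of 6 cKOf kidneys below all Ctrlf kidneys. With a log2 fold change of -0.28 and a standard error of 0.09, Aqp1 in females did not pass the threshold (edgeR adjusted p = 0.0923). The exact permutation test of the single gene gave p = 0.0152, unadjusted. The difference between the sexes in the effect of genotype was -0.10 on the log2 scale and did not pass either (edgeR interaction, adjusted p = 0.803), so the effect on Aqp1 is not shown to differ between males and females.

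Aqp7, the glycerol and water channel of S3, had 12.6, 16 and 22 CPM in the lowest, median and highest Ctrlm kidney and 11.9, 14.9 and 19.4 CPM in cKOm mice. The groups overlapped almost completely, with a log2 fold change of -0.11 (edgeR adjusted p = 0.772). In females the 3 values were 11.4, 15.6 and 18.2 CPM in Ctrlf and 10.1, 12.5 and 13.6 CPM in cKOf mice. Of the cKOf kidneys 2 lay below all Ctrlf kidneys and the others in the lower part of the Ctrlf range. The log2 fold change of -0.34 (standard error 0.13) did not pass the threshold (edgeR adjusted p = 0.168).

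Aqp11, the channel of the endoplasmic reticulum, was the steadiest member. Its medians were 51.2 CPM in Ctrlm, 51.2 CPM in cKOm, 49.8 CPM in Ctrlf and 53.9 CPM in cKOf mice, and the 24 kidneys ran from 38.8 to 60.5 CPM. Its log2 fold change was 0.03 in males (edgeR adjusted p = 0.933) and 0.10 in females (edgeR adjusted p = 0.656), each with a standard error of 0.09.

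**Figure D3:**
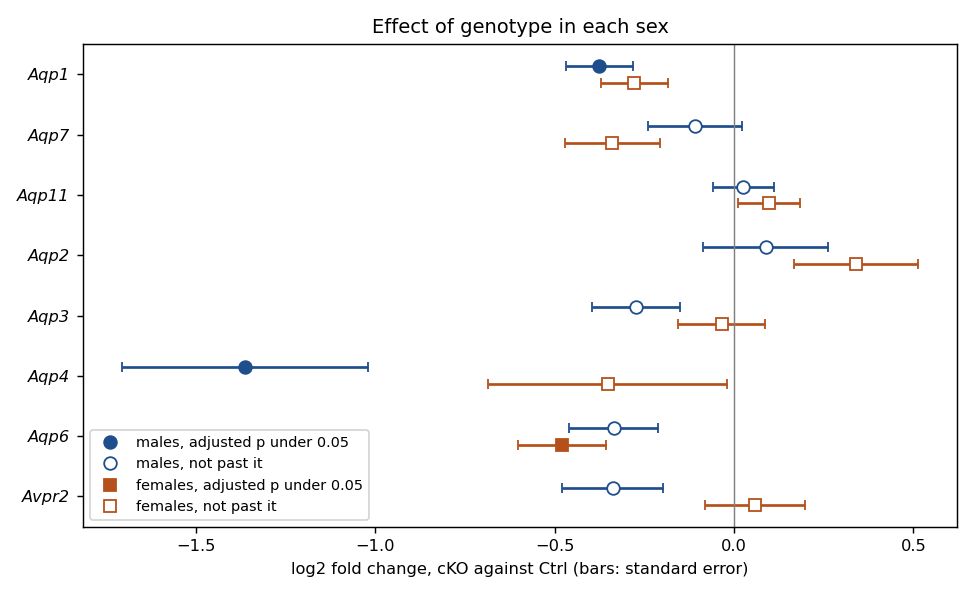
Log2 fold change of cKO against Ctrl mice for the 8 genes in males (circles) and females (squares), with the standard error as bars and filled symbols for an adjusted p under 0.05. Filled symbols are found for Aqp1 (-0.38) and Aqp4 (-1.36) in males and for Aqp6 (-0.48) in females.

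In the collecting duct the water channels of principal cells did not move as a group between genotypes. Aqp2, the vasopressin-regulated channel of the apical membrane, had 48.8, 52.9 and 59.9 CPM in the lowest, median and highest Ctrlm kidney. In cKOm mice it had 33.4, 63.1 and 76.8 CPM. The cKOm kidneys spread on both sides of the Ctrlm range, with 2 below all Ctrlm kidneys and the other 4 above them, and the log2 fold change was 0.09 (edgeR adjusted p = 0.876). Accordingly the coefficient of variation of Aqp2 was 8.04% in Ctrlm and 28.1% in cKOm mice, a description that was not tested.

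Aqp2 in females had 48.5, 68 and 88.1 CPM in Ctrlf and 52.6, 88.4 and 111 CPM in cKOf mice. Of the cKOf kidneys 3 were above all Ctrlf kidneys, but the groups overlapped. A log2 fold change of 0.34 (standard error 0.17) did not pass the threshold (edgeR adjusted p = 0.347).

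Aqp3, the water and glycerol channel of the basolateral membrane, had 29.6, 39.7 and 52 CPM in Ctrlm and 27.8, 33.2 and 38 CPM in cKOm mice. The ranges overlapped, and the log2 fold change was -0.27 with a standard error of 0.12 (edgeR adjusted p = 0.261). In females the medians of Aqp3 were 43.2 CPM in Ctrlf and 43.6 CPM in cKOf mice, with a log2 fold change of -0.03 (edgeR adjusted p = 0.939).

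Aqp4 had the largest change among the 8 members. It lies at chr18:15389496-15410982 of GRCm38 on the minus strand, where the RNA gene AC133525.2 overlaps it on the opposite strand, so its counts may hold reads from this partner. In Ctrlm mice the 6 kidneys had 60.7, 73.1, 75.6, 87.2, 96.1 and 131 CPM. In cKOm mice they had 10.6, 11.4, 26.7, 45.7, 51.8 and 56.7 CPM. Every cKOm kidney was below every Ctrlm kidney, and the cKOm kidneys varied widely among themselves, with 2 of them close to 11 CPM (exact permutation test, p = 0.00216). Those 2, replicates 1 and 3, were also the cKOm kidneys below all Ctrlm kidneys for Aqp2 (42.4 and 33.4 CPM). For Aqp3 replicate 1 was the highest cKOm kidney and replicate 3 the lowest. For Aqp4 in males the log2 fold change was -1.36 with a standard error of 0.34 (edgeR adjusted p = 0.0155), so that the level fell by 61.1%. With the hepatocyte markers as a covariate the call held (edgeR adjusted p = 0.0261), and without the 5 kidneys the log2 fold change was -1.11 and did not pass (edgeR adjusted p = 0.33).

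In females the Aqp4 transcript had 75.2, 116.6, 142, 151, 155 and 212 CPM in Ctrlf mice. In cKOf mice it had 38.6, 109.6, 112, 131, 136 and 141 CPM. The groups overlapped, with a single cKOf kidney below all Ctrlf kidneys, and the log2 fold change of -0.35 (standard error 0.33) did not pass the threshold (edgeR adjusted p = 0.689). The effect of genotype was lower in males than in females by 1.01 on the log2 scale, which did not pass the interaction test over all genes (edgeR adjusted p = 0.352). No member passed this test, by which 2.31% of the tested genes were called, and 1 of 8 members had an unadjusted p under 0.05, as had 13.4% of the tested genes.

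Avpr2, the receptor through which vasopressin acts on these cells, was the least abundant of the collecting duct members in CPM. It had 7.85, 11.6 and 14.1 CPM in the lowest, median and highest Ctrlm kidney and 7.18, 8.84 and 10.9 CPM in cKOm mice. Of the cKOm kidneys 1 lay below all Ctrlm kidneys and the others in the lower part of the Ctrlm range. The log2 fold change was -0.34 with a standard error of 0.14 (edgeR adjusted p = 0.209). In females it had 10.5, 12.1 and 15.7 CPM in Ctrlf and 9.53, 13.9 and 14.6 CPM in cKOf mice, with a log2 fold change of 0.06 (edgeR adjusted p = 0.902).

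Aqp6, the channel of acid-secreting intercalated cells, was the only member called in females. The 6 Ctrlf kidneys had 48.2, 55, 55.9, 56.6, 62.7 and 66 CPM. The 6 cKOf kidneys had 35.6, 37.8, 38.6, 40.1, 47.3 and 47.8 CPM. The groups did not overlap, which was so for 0.559% of the tested genes in females (exact permutation test, p = 0.00216). The Aqp6 level in females fell by 28.2%, or -0.48 on the log2 scale with a standard error of 0.12 (edgeR adjusted p = 0.0179). With p values adjusted within females alone it did not pass (edgeR adjusted p = 0.127).

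In males Aqp6 had 30.3, 35.8 and 59 CPM in the lowest, median and highest Ctrlm kidney and 26.5, 31.4 and 36.5 CPM in cKOm mice. Of the cKOm kidneys 2 were below all Ctrlm kidneys and the others low in the Ctrlm range, and 1 Ctrlm kidney stood far above the rest. Its log2 fold change of -0.34 (standard error 0.12) did not pass (edgeR adjusted p = 0.136). Without the 5 kidneys with hepatocyte transcripts it was -0.72 and passed (edgeR adjusted p = 0.0093), with 2 Ctrlm kidneys left, of which 1 was the high kidney. The effects on Aqp6 in the 2 sexes did not differ past the threshold (edgeR interaction, adjusted p = 0.777).

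Single members were also compared by exact permutation tests of the mean CPM, 16 tests in all with unadjusted p. In males the exact p of 4 members was under 0.05, namely Aqp1, Aqp4, Aqp6 (p = 0.0433) and Avpr2 (p = 0.0433). In females the exact p of 3 members was under 0.05, namely Aqp6, Aqp1 (p = 0.0152) and Aqp7 (p = 0.026). The share of all tested genes with an exact p under 0.05 was not computed, so these counts have no such share beside them. By edgeR, 25.1% of the tested genes in males and 6.73% in females had an unadjusted p under 0.05. The p of 0.0433 for Aqp6 and for Avpr2 and that of Aqp7 lie close to 0.05, and leaving out single kidneys moved them past it (highest exact p of 0.0866 for Aqp6 and Avpr2). In the other direction, single kidneys brought members under 0.05 when left out, Ctrlf replicate 4 for Aqp4 in females (exact p = 0.0433, and 0.247 with it), cKOf replicate 4 for Aqp2 in females (exact p = 0.0346, and 0.117 with it) and Ctrlm replicate 6 for Aqp3 in males (exact p = 0.026, and 0.0866 with it).

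In bulk kidney RNA, fewer cells of a type and less RNA per cell cannot be told apart. Each member was therefore also set against markers of the cell type it is listed under, as the log2 level of the member minus the mean log2 level of the markers. The markers themselves moved in males. The summed level of the 7 S3 markers was 4524 ± 477 CPM in Ctrlm and 2129 ± 236 CPM in cKOm mice, without overlap (exact permutation test, p = 0.00216), and 6 of the 7 fell, among them the organic anion transporter Slc22a7, with a log2 fold change of -4.10 (edgeR adjusted p = 1.19e-09), and the sterol hydroxylase Cyp7b1, with -2.56 (edgeR adjusted p = 2.59e-08). Without the 5 kidneys with hepatocyte transcripts Slc3a1 and Slc5a1 of this list did not pass (edgeR adjusted p = 0.239 and 0.559). Slc22a7, Cyp7b1, Slc7a13, Atp11a and Napsa passed in that setting. In females the S3 sums overlapped, at 3790 ± 419 CPM in Ctrlf and 3351 ± 475 CPM in cKOf mice (exact permutation test, p = 0.121).

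The summed level of the 11 general proximal tubule markers changed less, with 12617 ± 551 CPM in Ctrlm and 11460 ± 400 CPM in cKOm mice (exact permutation test, p = 0.00433). Only 5 of these 11 markers had a negative log2 fold change in males, and their median was 0.04. The lower sum therefore does not stand for the list as a whole. The principal cell sum was 519 ± 68 CPM in Ctrlm and 567 ± 38.7 CPM in cKOm mice (exact permutation test, p = 0.162), with a rise of Scnn1b, a subunit of the epithelial sodium channel (log2 fold change 0.35, edgeR adjusted p = 0.0103), a call lost without the 5 kidneys with hepatocyte transcripts (edgeR adjusted p = 0.13). The intercalated cell sum was higher in every cKOm than in every Ctrlm kidney, at 448 ± 35.1 against 386 ± 21.1 CPM (exact permutation test, p = 0.00216). Within that list the proton pump subunit Atp6v1b1 (log2 fold change 0.30) and the anion exchanger pendrin, Slc26a4 (0.47), rose, calls that were lost without the 5 kidneys (edgeR adjusted p = 0.397 and 0.166), and the anion exchanger Slc4a1 fell in both sexes (-0.68 in males, edgeR adjusted p = 0.00258, and -0.70 in females, edgeR adjusted p = 0.00172). Outside these cell types, the sum of 7 thick ascending limb markers was higher in cKOm mice (6873 ± 319 against 5865 ± 425 CPM, exact permutation test, p = 0.00216), and that of 6 macrophage markers was lower (83.8 ± 10.2 against 113 ± 20.4 CPM, exact permutation test, p = 0.0108). The part of these shifts in the members' levels was not tested.

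**Figure D4:**
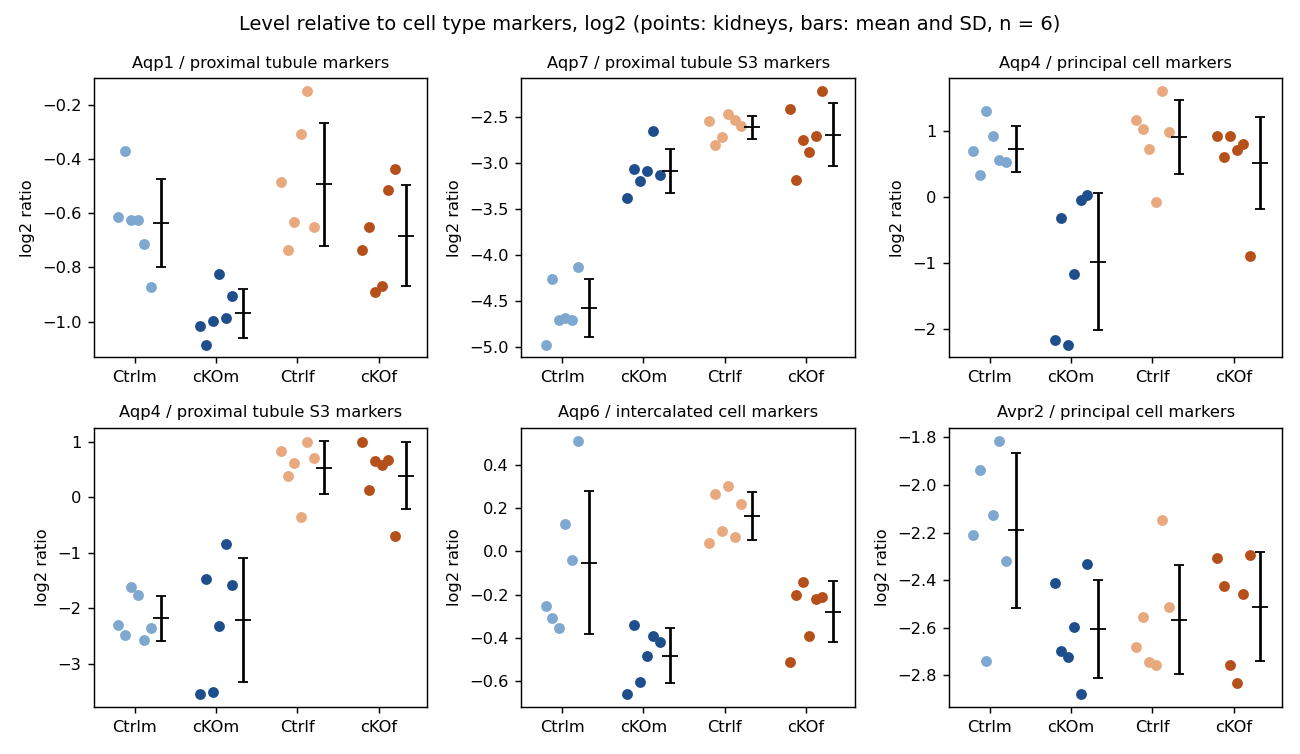
Log2 level of a member minus the mean log2 level of the named markers in each kidney (points, 6 per group), with the mean and SD (bars); the axes do not start at 0 and differ between panels. Aqp4 is lower in all cKOm than in all Ctrlm kidneys against the principal cell markers (difference -1.71) and overlaps against the S3 markers (-0.03), whereas Aqp7 is higher in all cKOm kidneys against the S3 markers (1.49).

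Set against proximal tubule markers, Aqp1 was lower in cKOm than in Ctrlm mice by 0.33 on the log2 scale, with 5 of 6 cKOm kidneys below all Ctrlm kidneys (mean -0.97 against -0.64, exact permutation test, p = 0.00433). In females the difference was -0.19 (exact permutation test, p = 0.143). Aqp7, whose own level overlapped between Ctrlm and cKOm mice, was higher relative to the S3 markers in all cKOm kidneys, by 1.49 on the log2 scale (exact permutation test, p = 0.00216), a ratio in which the S3 markers were the part that differed. In females the difference for Aqp7 was -0.08 (exact permutation test, p = 0.619). Aqp11 differed from the proximal tubule markers by 0.06 in males and 0.18 in females (exact permutation tests, p = 0.431 and p = 0.123).

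For Aqp4 the answer depended on the markers. Relative to the principal cell markers it was lower in every cKOm than in every Ctrlm kidney, by 1.71 on the log2 scale (exact permutation test, p = 0.00216). Relative to the S3 markers, a comparison added after its values had been seen, the difference was -0.03 and the groups overlapped (exact permutation test, p = 0.924). In females the differences were -0.40 and -0.15 (exact permutation tests, p = 0.322 and p = 0.636). The S3 markers fell by unlike amounts in males, with Slc22a7 far beyond the list median of -1.19. Their mean therefore does not stand for the number of S3 cells. The log2 level of Aqp4 relative to them also differed between control mice, at -2.18 in Ctrlm and 0.53 in Ctrlf. Which of the cell types lost Aqp4 RNA was not tested, since whole kidneys do not separate them.

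Aqp6 was set against intercalated cell markers of both the acid-secreting and the base-secreting type, since the list holds pendrin and Slc4a9 of the latter, and was lower relative to them in both sexes. The difference was -0.43 in males, with 5 of 6 cKOm kidneys below all Ctrlm kidneys (exact permutation test, p = 0.00433), and -0.44 in females without overlap (exact permutation test, p = 0.00216). With the median of the markers in place of their mean it was -0.24 in males (exact permutation test, p = 0.0628) and -0.26 in females (exact permutation test, p = 0.0455). Slc4a1, the anion exchanger of the acid-secreting type and also of red cells, had a lower log2 fold change than Aqp6 in both sexes (-0.68 against -0.34 in males and -0.70 against -0.48 in females). The mean of the list does not stand for the acid-secreting type alone. All 5 red cell markers had negative log2 fold changes in both sexes, none called (medians -0.29 in males and -0.50 in females). The red cell part in Slc4a1 was not tested. Avpr2 was lower relative to the principal cell markers in males, by 0.42 on the log2 scale with overlapping groups (exact permutation test, p = 0.0303), and left-out kidneys moved this p to as much as 0.0606. Aqp3 differed by -0.34 in males (exact permutation test, p = 0.0671), by -0.60 with the median of the markers (exact permutation test, p = 0.00433), and by -0.43 without Ctrlm replicate 6 and -0.42 without cKOm replicate 1 (exact permutation tests, p = 0.026 and p = 0.0303). Aqp2 differed by 0.33 in females (exact permutation test, p = 0.0931).

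Members were also compared between the sexes. In control mice Aqp6 was lower in males than in females by 0.55 on the log2 scale (edgeR adjusted p = 0.00243), which makes 1 of 8 members called where 15.7% of the tested genes were called, so that the count is no higher than over all genes. Its Ctrlm kidneys had a median of 35.8 CPM and its Ctrlf kidneys one of 56.3 CPM, and 5 of 6 Ctrlm kidneys were below all Ctrlf kidneys. This call did not hold with the hepatocyte covariate (-0.45, edgeR adjusted p = 0.0698) or without the kidneys with hepatocyte transcripts (-0.23, edgeR adjusted p = 0.407). Aqp4 was lower in Ctrlm than in Ctrlf mice by 0.70, which did not pass (edgeR adjusted p = 0.189). The markers of collecting duct cells moved the same way, with 6 of 7 principal cell markers and 3 of 8 intercalated cell markers lower in Ctrlm mice and none higher. This was not particular to them. Of other lists, 4 of 7 thick ascending limb, 3 of 5 distal convoluted tubule and 4 of 5 podocyte markers were lower and none higher. Of 11 proximal tubule markers 2 were lower and 2 higher, and of 7 S3 markers 2 were lower and 3 higher.

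Among cKO mice, 6 of 8 members were lower in males, where 9.72% of the tested genes were called. They were Aqp4 (log2 fold change -1.71, edgeR adjusted p = 9e-04), Avpr2 (-0.51, adjusted p = 0.0148), Aqp6 (-0.41, adjusted p = 0.0264), Aqp2 (-0.55, adjusted p = 0.0356), Aqp3 (-0.38, adjusted p = 0.039) and Aqp1 (-0.29, adjusted p = 0.0413). Aqp4 had 10.6 to 56.7 CPM in cKOm and 38.6 to 141 CPM in cKOf mice, with 3 of 6 cKOm kidneys below all cKOf kidneys. Avpr2 had 7.18 to 10.9 CPM in cKOm and 9.53 to 14.6 CPM in cKOf mice. For Aqp1, Aqp2, Aqp3 and Aqp6 the call was lost when single kidneys were left out, and the number of members called then ran from 2 to 6. In cKO mice 4 of 7 principal cell markers were lower in males as well, whereas none of the 8 intercalated cell markers was called. The part of these differences in the members was not tested. Aqp7, by contrast, was 12.2 ± 1.39 CPM in cKOf and 15.2 ± 2.42 CPM in cKOm mice and did not pass (edgeR adjusted p = 0.125).

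Other genes of the water transport pathway were read from lists written from general knowledge. Of 22 genes listed for vasopressin and cAMP signalling, which do not include Avpr2, 2 rose and none fell in cKOm mice. The list median was 0.03 on the log2 scale beside 0.01 for all tested genes. A share of 2 in 22 is close to the 9.05% called over all genes in males, so the count says nothing particular to the list. Adcy6, an adenylyl cyclase through which vasopressin raises cAMP in the collecting duct, had a log2 fold change of 0.30 (edgeR adjusted p = 0.046). Pde4d, a phosphodiesterase that degrades cAMP, had 0.65 (edgeR adjusted p = 0.0364). Without the 5 kidneys with hepatocyte transcripts neither passed (edgeR adjusted p = 0.136 for Adcy6 and 0.49 for Pde4d). Gnas, the stimulatory G protein subunit between receptor and cyclase, had -0.01 (edgeR adjusted p = 0.982). In females none of the 22 genes passed the threshold, and 1, Avpr1a, a vasopressin receptor other than Avpr2, had an unadjusted p under 0.05.

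Of 24 genes for the trafficking of AQP2 vesicles, 1 rose in cKOm and 1 fell in cKOf mice, beside 9.05% and 0.851% called over all genes. Vamp2, a SNARE protein of vesicles that carry AQP2, rose by 0.35 on the log2 scale in males (edgeR adjusted p = 0.0018) and had 0.07 in females. Msn, moesin, which links the membrane to actin, had -0.37 in females (edgeR adjusted p = 0.0287) and -0.10 in males. The list medians were -0.03 in males and 0.01 in females.

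Of 24 transcription regulators of the collecting duct, 1 rose in cKOm mice, Tfap2b, a factor of the AP-2 family (log2 fold change 0.39, edgeR adjusted p = 0.024, and an adjusted p of 0.0642 without the 5 kidneys), beside 9.05% called over all genes. The list median was 0.15 in males, where 5 genes had an unadjusted p under 0.05 (25.1% over all genes), and 0.07 in females, where none passed the threshold and 3 were under 0.05 without adjustment. The 13 genes of the tonicity response and urea transport, by which medullary cells adapt to a concentrated interstitium, held no call in either sex by edgeR, and 1 gene in each sex had an unadjusted p under 0.05. In males that was Slc14a1, the urea transporter of the descending vasa recta and red cells, with a log2 fold change of -0.71 (edgeR adjusted p = 0.0556). In females it was the chaperone Hspa4l, with 0.36 (edgeR adjusted p = 0.176). Avpr1a, Slc14a1, Hspa4l and Gnas were chosen for mention after their values had been seen.

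Glycerol is the other cargo of Aqp3 and Aqp7. Of 7 genes that phosphorylate, oxidise or release it, 3 fell and 1 rose in cKOm mice, and Gpd1l, Lipe and Pnpla2 did not pass (edgeR adjusted p = 0.162, 0.13 and 0.933). Over all genes 9.05% were called in males. Glycerol kinase Gk had a log2 fold change of -0.64 (edgeR adjusted p = 5.64e-04). The glycerol 3-phosphate dehydrogenases Gpd1, of the cytosol, and Gpd2, of the mitochondrion, had -0.36 (edgeR adjusted p = 0.0163) and -0.74 (edgeR adjusted p = 0.00146). Mgll, which releases glycerol from monoacylglycerol, had 0.75 (edgeR adjusted p = 2.32e-04). Without the 5 kidneys with hepatocyte transcripts Gpd2 passed (edgeR adjusted p = 0.00829), and Gk, Gpd1 and Mgll did not (edgeR adjusted p = 0.112, 0.0909 and 0.137). In females none of the 7 passed, and their log2 fold changes for Gk, Gpd1, Gpd2 and Mgll were -0.25, -0.17, -0.20 and 0.38.

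The remaining aquaporins were scarce in these kidneys. Aqp12 had no read in any kidney, and Mip (Aqp0) was at 0 in all but 1 kidney, where a single read was counted. Aqp8 reached at most 0.938 CPM and was therefore not tested. Aqp5, which lies between Aqp2 and Aqp6 on chromosome 15, ranged from 0 to 1.49 CPM in Ctrlm and from 0.0446 to 0.469 CPM in cKOm mice and did not pass the test (edgeR adjusted p = 0.16). Aqp9, a glycerol channel known from the liver, fell in males (log2 fold change -3.52, edgeR adjusted p = 0.00828), a call lost with the hepatocyte covariate (-1.40, edgeR adjusted p = 0.523). It had 1.18 to 2.97 CPM in the 4 Ctrlm kidneys with hepatocyte transcripts, 0 and 0.143 CPM in the other 2, and its highest cKOm level, 0.538 CPM, was that of the cKOm kidney with hepatocyte transcripts.

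Over the 24 kidneys the members varied together to different degrees, as described by Pearson's r of log2 CPM, which mixes differences between the groups with those between mice. Aqp3 and Avpr2 had the closest pair of levels (r = 0.738, and r = 0.57 for the deviations from the group means). Aqp1 and Aqp3 had r = 0.677 (0.506 within groups), and Aqp2 and Avpr2 r = 0.589 (0.51 within groups). Aqp1 and Aqp4 had r = 0.617, but 0.0287 for the deviations from the group means, so that this pair shared only the differences between groups. Aqp11 had an r between -0.186 and 0.0307 with each of the other members.

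The genes most like each member were sought among 11059 tested genes with a mean of at least 5 CPM. They were Chrdl1 and Lrp2 for Aqp4 (r = 0.89 and 0.832), Chp1 and Fbp1 for Aqp1 (0.859 and 0.849) and Npl and Slc4a11 for Aqp6 (0.839 and 0.815). For Avpr2 they were Emcn and Anxa2 (0.817 and 0.79), for Aqp3 Fbp1 and Gnptg (0.793 and 0.789) and for Aqp2 Bcam and Fam174b (0.79 and 0.758). Aqp7 was closest to Ctdspl and Get4 (0.673 and 0.664) and Aqp11 to Entpd7 and Myo15b (0.653 and 0.598). Lrp2 encodes megalin, an endocytic receptor of the proximal tubule, and is 1 of its markers here. Fbp1 encodes a gluconeogenic enzyme of the same segment, and Emcn an endothelial glycoprotein. These values are descriptions over kidneys that share the groups, and genes with the highest of many correlations are high by selection.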

How the data were processed

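The authors deposited 1 file per kidney with whole counts of reads per gene, without normalization. Per the labels, libraries were made with TruSeq Stranded mRNA reagents. The submitters' processing notes name cutadapt 1.8, STAR 2.5.3a, HTSeq 0.9.1 and GRCm38. The strand setting of the counting is not given in the sources used here. The 5 closing lines for reads not counted on a gene were set aside. Reads with no feature made 6.41 to 9.25%, and ambiguous reads 1.01 to 1.30%, of these 2 kinds and the reads on genes together. Alignments that were not unique made 26.9 to 34.8% once they were added to that total. Names and positions came from GENCODE M21 (55154 of 55335 genes matched) and promoters from RefSeq.

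The 16092 genes that reached 1 CPM in 1 or more kidneys entered a single quasi-likelihood model of edgeR 4.0.16 (R 4.3.3) with TMM scaling, the 4 groups and no covariate. Benjamini-Hochberg adjustment covered male and female tests jointly, both sex comparisons jointly, and, separately, every gene of the interaction. The threshold was 0.05. Log2 CPM used a prior count of 2. Exact permutation tests were two-sided, over 924 arrangements of 6 kidneys against 6. CPM per kilobase used the length of all exons of a gene. The procedure was tested on simulated data. Kidneys of a group differed by more than sampling noise (chi-square per degree of freedom 9.83 to 99.2 over 60 pairs), and the labels do not say that replicates with the same number are related.

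Alternatives were limma-voom (limma 3.58.1, the tool of the study), DESeq2 1.42.0, RLE size factors, no filter on low counts, a filter of 1 CPM in 6 kidneys, a replicate block, a hepatocyte covariate, each sex fitted or adjusted alone, CPM without TMM, the median of markers, each kidney left out, and, chosen after seeing the data, leaving out the 5 kidneys with hepatocyte markers above 400 CPM. Genes outside the members were named if called in a list, by likeness, or as said in the text. The members and lists were chosen with earlier results of these data known. Counting error weighs most on the members with few reads, with 159 reads as the lowest count of a member. Python 3.11.15, pandas 2.3.3, scipy 1.17.1 and matplotlib 3.10.9 were used for tables and figures.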

Additional observations from a re-analysis of the deposited data

Results flagged for a closer look

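Within-group outliers were sought for each of the 8 members in each of the 4 groups, 32 tests at Dixon's 95% critical value, by which chance alone would give about 1 in 20. There were 2 such kidneys. The lowest cKOf kidney for Aqp4 had 38.6 CPM where the next had 109.6 CPM, and the highest Ctrlm kidney for Aqp6 had 59 CPM where the next had 39.5 CPM.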

How the results depend on the processing

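The calls of Aqp1 and Aqp4 in males and of Aqp6 in females kept their direction and passed the threshold in all 24 fits with 1 kidney left out, and the interaction called no member in any alternative. The exceptions were as follows, and their cause was not tested. With adjustment within each sex, 0 members and 43 genes were called in females. With the hepatocyte covariate, 1 member and 791 genes were called in males, and 0 members and 1517 genes between the sexes in controls. Without the 5 kidneys high in hepatocyte markers, which leaves fewer mice, 1 member and 599 genes were called in males, 83 genes in females, 3 members between the sexes in cKO mice, and 0 members and 1481 genes between the sexes in controls. In that setting the interaction estimates on the log2 scale were 0.0030 for Aqp1, -0.24 for Aqp6 and -0.0437 for Aqp7, male estimates were -0.0286 for Aqp2 and -0.0288 for Aqp11, and the sex difference of Avpr2 in controls was 0.0206, each reversed in sign and not called. DESeq2 called 574 genes in the interaction. With every gene with a count the male estimate for Aqp11 was -5.98e-04, and with the covariate its sex difference in controls was -0.0173. With the median of the markers, 2 members had an exact p under 0.05 in females relative to the markers, and Aqp11 in males (-0.0115) and Avpr2 in females (-0.0595) changed sign. With CPM on total counts, 2 members had an exact p under 0.05 in males.

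With each kidney left out in turn, the number of members with an exact p under 0.05 ran from 2 to 4 in males and, relative to markers, from 1 to 2 in females, and the number called between the sexes in cKO mice from 2 to 6, with 2 without cKOf replicate 2 or cKOm replicate 3 and 3 without cKOf replicates 5 or 6 or cKOm replicate 1. Estimates that changed sign were small. They ran from -0.0183 to 0.0554 (Aqp11 in males), -0.0514 to 0.0226 (Aqp11 between the sexes in cKO mice), -0.0141 to 0.204 (Aqp2 in males) and -0.0867 to 0.0516 (Aqp3 in females) as log2 fold changes, from -0.658 to 1.98 (Aqp11 in males), -0.557 to 8.14 (Aqp2 in males) and -2.68 to 1.46 (Aqp3 in females) as differences of CPM, and from -0.144 to 0.0901 (Aqp2 in males), -0.0687 to 0.0583 (Aqp3 in females) and -0.174 to 0.0179 (Aqp7 in females) relative to markers.

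Kidneys with the same number deviated together little or not at all (r from -0.199 to 0.12 over 36 pairs of kidneys, of which 3 were over 0.1). Kidneys with different numbers were not compared, so a pairing of mice is neither shown nor excluded by the number. With it as a replicate block, 1268 genes were called in males and 110 in females, with 2 members in males and 1 in females, and Aqp1 and Aqp4 in males and Aqp6 in females passed (edgeR adjusted p = 0.0296, 0.028 and 0.0061), while the sex difference of Aqp1 in cKO mice did not (adjusted p = 0.0692). Depth limits Avpr2 and Aqp7 most, with 159 and 192 reads in their lowest kidneys.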
